A study of Mus musculus with 4 samples.

Results

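The 9 genes described here make, carry or sense retinoic acid, and they were followed in bulk RNA sequencing of 4 mouse adenoma colonoid lines. The members were chosen by gene symbol: Rdh10, Aldh1a1, Aldh1a2 and Aldh1a3 for synthesis, Crabp2 for transport, and Rara, Rarb, Rarg and Rxra as receptors. All 9 had a row among the 16857 genes of the deposited table, and all 9 passed the filter on low values. A colonoid is a small body of colon epithelium kept in culture. The G0 group holds line 75 (replicate 1) and line 179 (replicate 2), labelled Apcnull/LSL-mTERT-het, and the G2 group holds line 157 (replicate 1) and line 236 (replicate 2), labelled Apcnull/LSL-mTERT-homo. The number in G0 and G2 matches the generation given for the lines, so the groups differ in generation too. All 4 lines are labelled Apcmin, so the Apc lesion is common to both groups, and Tert is the catalytic subunit of telomerase. The series compares colonoids with low and high chromosomal instability. The labels do not say which of G0 and G2 has the low and which the high instability, whether each line came from its own mouse, or what would act on the LSL element.

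Vitamin A (retinol) is oxidised in steps to retinal and then to retinoic acid. Retinol dehydrogenases such as RDH10 take the first step and the retinaldehyde dehydrogenases of the ALDH1A family take the second, which cannot be reversed. Retinoic acid enters the nucleus with carriers such as CRABP2 and binds RAR receptors, which sit on DNA as pairs with RXR receptors. Enzymes of the CYP26 family break it down. In the intestine retinoic acid is known for its part in epithelial differentiation and in mucosal immunity.

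Library totals ran from 16545429 to 17901744 recovered counts, and every level in the text is a normalized count, the count divided by the library's size factor. Tert, which the labels give as altered, stood at 93.3 and 97.5 in the G0 libraries and at 0 and 0.98 in the G2 libraries. The 4 Y-linked genes examined had no count in G0 and 296.2 to 526.4 normalized counts in G2. The sex of the lines, their generation and the het or homo label all differ with the group. They cannot be told apart in any comparison here. The epithelial markers fixed for the tissue check summed to 127584 to 171249 in G0 and 165756 to 174047 in G2, mostly from keratins. Of these 11 markers 3 passed the test described below: Cdh1 (E-cadherin) rose 1.8-fold (limma adjusted p = 0.0171), and Vil1 and Cdx2 fell. Vil1, a brush border protein of differentiated enterocytes, stood at 4734 and 6383 in G0 and at 1731 and 786.9 in G2 (limma adjusted p = 0.0103). Krt20, also in this list, went the other way, at 0.98 and 0 in G0 and 93.8 and 4.9 in G2. That difference did not pass (limma adjusted p = 0.088). Cdx1 stood at 8.1 or lower throughout, and Cdx2, an intestinal identity factor, stood at 2395 and 3199 in G0 and 270.3 and 186.7 in G2 (limma adjusted p = 0.00043). Mesenchymal markers summed to 44.2 to 51.8 in G0 and 227.9 to 482.9 in G2; Vim gave most of the sum in G0 and Acta2 most of it in G2. In that list 9 of 10 markers had a row, and Dcn and Pdgfra were at 0 in every library. Leukocyte markers summed to 1.0 in each G0 library and 23.2 to 28.3 in G2, with 5 of 8 having a row and Ptprc, Itgam and Itgax at 0 throughout. Endothelial markers, 3 of 5 with a row, summed to 3.9 to 4.1 and 46.9 to 48.4, with Tek the highest.

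Promoter sequence was available from RefSeq (GRCm38.p6, the assembly known as mm10) for 6 of the 9 members, all but Aldh1a3, Rdh10 and Crabp2. A first set is shown because the largest difference among the members lay in the ALDH1A family. The 100 bases before the transcript start are given 5′ to 3′ on the gene's own strand. Capitals mark CCAAT and ATGCAAAT, both searched on both strands; the 2 motifs do not overlap. Aldh1a1 (chr19:20601868-20601967, plus strand, the start nearest to GENCODE's principal transcript) is set beside its neighbour Aldh1a7 (chr19:20727557-20727656, minus strand), a close paralog that is not a member, and Aldh1a2 (chr9:71215689-71215788, plus strand).
Aldh1a1: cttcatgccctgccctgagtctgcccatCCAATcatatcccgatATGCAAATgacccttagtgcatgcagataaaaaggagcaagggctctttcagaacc
Aldh1a7: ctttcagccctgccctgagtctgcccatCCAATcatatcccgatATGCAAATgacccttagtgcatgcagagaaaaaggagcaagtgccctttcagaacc
Aldh1a2: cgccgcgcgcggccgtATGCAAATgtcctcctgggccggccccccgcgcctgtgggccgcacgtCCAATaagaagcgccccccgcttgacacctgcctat
The Aldh1a1 and Aldh1a7 stretches are identical at 94 of 100 positions, with both motifs at the same distance from the start. Aldh1a2 holds the same 2 motifs in the other order. Of all 32851 promoter windows of 300 bases, 1.74% hold ATGCAAAT and 37.4% hold CCAAT.

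A second set is shown because these promoters hold a DR5 element, the arrangement bound by RAR and RXR pairs: a pair of half-sites of the AGGTCA type in the same direction with 5 bases between, searched on both strands. Capitals mark the element. Rarb (chr14:16575477-16575576, minus strand) was the 1 member with a match in its window, and Cyp26a1 (chr19:37697708-37697807, plus strand), the main retinoic acid-degrading enzyme gene, is a textbook target.
Rarb: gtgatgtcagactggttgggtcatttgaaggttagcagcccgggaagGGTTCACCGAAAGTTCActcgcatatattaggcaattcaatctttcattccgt
Cyp26a1: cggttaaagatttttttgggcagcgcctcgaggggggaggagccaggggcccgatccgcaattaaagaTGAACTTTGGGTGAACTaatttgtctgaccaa
The Rarb element lies 53 to 37 bases before the start and the Cyp26a1 element, on the opposite strand, 32 to 16 bases before it. A DR5 match of this kind is found in 32 of the 32851 promoter windows (0.0974%). A match describes the letters alone and does not show that a receptor binds there.

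Among the synthesis genes, Aldh1a1 fell and Rdh10 rose in G2, and these were the only members that passed the test. Of all 13981 genes tested, 10.5% passed, 5.93% as higher and 4.56% as lower in G2, so 2 of 9 members (22.2%), 1 in each direction, is a count that differs from the background by about 1 gene. The groups did not overlap for 5 of 9 members (55.6%), 4 higher and 1 lower in G2, close to the 57.8% of all genes (29.2% higher and 28.6% lower). The members' median log2 fold change was 0.26, and that of all genes tested was 0.01. The test was limma, two-sided, adjusted by Benjamini-Hochberg across all of those genes, and each adjusted p below is from that fit. With 2 libraries a group, an exact two-sided permutation test of one gene cannot go below 0.333.

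**Figure D1:**
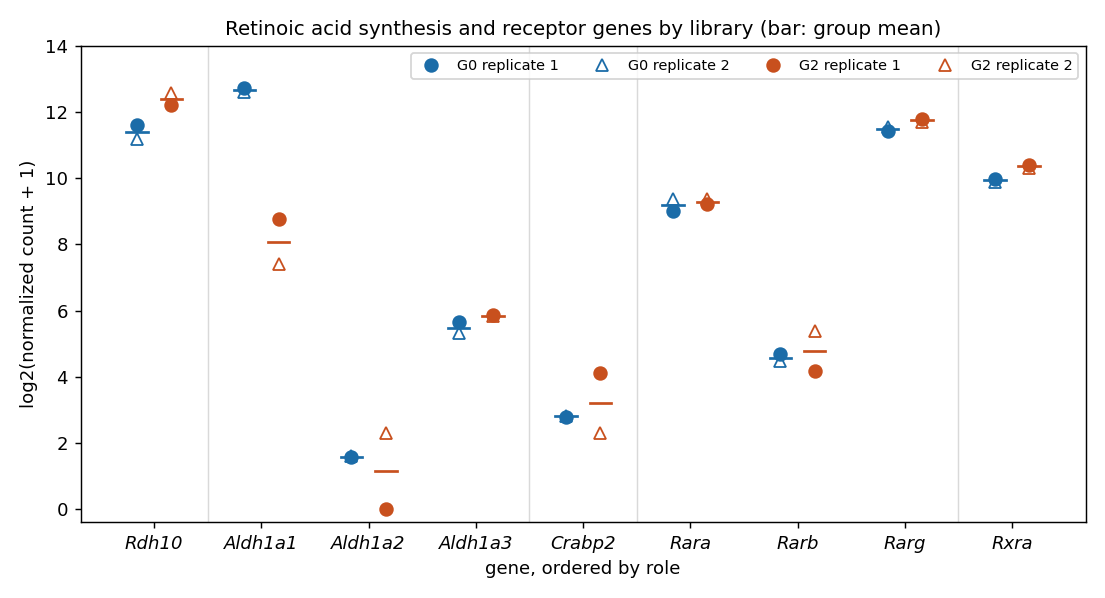
Level of each member in each library as log2(normalized count + 1), ordered by role (synthesis, transport, RAR receptors, RXR receptor), with a bar at the mean of each group's log2 values. The G0 and G2 symbols stand far apart for Aldh1a1, are separate by a smaller distance for Rdh10, and overlap for Aldh1a2, Crabp2, Rara and Rarb.

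Rdh10, on chromosome 1 from 16105882 to 16132550, encodes the retinol dehydrogenase that makes retinal and is limiting for retinoic acid synthesis in the embryo. It stood at 3118 and 2347 normalized counts in the G0 libraries and at 4792 and 6122 in the G2 libraries. Both G2 libraries lay above both G0 libraries, and the spread inside each group was wide. The mean rose 2-fold, from 2732 ± 545 to 5457 ± 940 (SD, n = 2 each), with a log2 fold change of 1.0 and an SE of 0.19 (adjusted p = 0.0212). The 95% interval of that change was 0.55 to 1.45. The call was lost when any 1 library was left out (limma adjusted p = 0.169 to 0.285) and without the intensity trend in the variance model (0.126).

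Aldh1a1, on chromosome 19 from 20492583 to 20643463, encodes a retinaldehyde dehydrogenase that is also widely used as a marker of stem-like cells. It stood at 6753 and 6198 normalized counts in the G0 libraries and at 432.6 and 168.1 in the G2 libraries. The G0 libraries were close to each other, while G2 replicate 1 held more than G2 replicate 2. The ratio of the means was 21.6-fold lower in G2 and 38.5-fold lower without G2 replicate 1. On the log2 scale the change was -4.58 (SE 0.39), with a 95% interval of -5.50 to -3.66 (adjusted p = 0.0011). The adjusted p was 0.0909 to 0.169 when any 1 library was left out. In bulk RNA, fewer cells of a type and less RNA per cell cannot be told apart. The markers that passed the test between the same 4 libraries were Cdx2 and Vil1, which fell, and Cdh1, Acta2, Col3a1, Tek and Csf1r, which rose. These were 3 of 11 epithelial, 2 of 4 mesenchymal, 1 of 1 endothelial and 1 of 2 leukocyte markers tested, beside 10.5% of all genes. Markers with a mean under 1 were not tested, and Col3a1 and Csf1r reached that filter through their G2 counts alone. The shares are therefore raised by the filter and are not a test of the marker lists. Col3a1 had 7 and 7 counts in the G2 libraries and Csf1r 16 and 5, both with 0 in G0, so these rest on few reads. Of the markers that passed, Cdx2, Vil1 and Csf1r were, like Aldh1a1, higher in G2 replicate 1 than in G2 replicate 2. Acta2 was lower there, and for Cdh1, Col3a1 and Tek the G2 libraries were nearly equal. The part of the markers in the Aldh1a1 result was not tested.

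Some reads of Aldh1a1 can fall equally on its neighbour Aldh1a7. Of the 50-base words in Aldh1a1 transcripts, 3.06% also occur in Aldh1a7, and 7.49% of the Aldh1a7 words occur in Aldh1a1. Aldh1a7, whose promoter stretch is printed above beside that of Aldh1a1, stood at 41.2 and 44.7 normalized counts in G0 and at 29.2 and 13.7 in G2. Both G2 values lay below both G0 values, but the difference did not pass (log2 fold change -1.06, SE 0.45, adjusted p = 0.191). Per kb of mRNA, Aldh1a1 was 143 and 122 times the level of Aldh1a7 in G0 and 13 and 10.8 times in G2. How many of the Aldh1a7 counts come from Aldh1a1 reads was not tested, and its values are uncertain for that reason.

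The other 2 retinaldehyde dehydrogenase genes were low in every library. Aldh1a3, on chromosome 7 from 66390892 to 66427477, stood at 49.1 and 38.6 normalized counts in G0 and at 57.5 and 55.7 in G2. Its G2 values lay above its G0 values, yet the log2 fold change of 0.37 had a 95% interval of -0.39 to 1.13 (adjusted p = 0.494). Aldh1a2, on chromosome 9 from 71215789 to 71296243, is the main retinoic acid-making enzyme gene of mesenchyme and embryo. It had 2, 2, 0 and 4 counts in G0 replicates 1 and 2 and G2 replicates 1 and 2, around the 3 counts that a count of 0 allows per library, so a difference was not detectable at this depth. Aldh1a1 thus stood 201 and 234 times above Aldh1a3 per kb in the G0 libraries, and 11 and 4.41 times above it in the G2 libraries.

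Crabp2, on chromosome 3 from 87948693 to 87953372, encodes the carrier that hands retinoic acid to RAR receptors. It stood at 5.9 and 6.1 normalized counts in G0 and at 16.1 and 3.9 in G2. The G2 libraries lay on both sides of the G0 libraries (log2 fold change 0.39, 95% interval -1.29 to 2.08, adjusted p = 0.758), and the direction turned without G2 replicate 1 (-0.51).

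None of the 4 receptor genes passed the test. Rarg, on chromosome 15 from 102234938 to 102257522, encodes the gamma receptor and was the most abundant of them. It stood at 2748 and 3012 normalized counts in G0 and at 3575 and 3305 in G2, without overlap (log2 fold change 0.26, 95% interval -0.05 to 0.57, adjusted p = 0.259). Rara, on chromosome 11 from 98927800 to 98974942, encodes the broadly expressed alpha receptor. It stood at 511.6 and 664.3 in G0 and at 591.0 and 665.7 in G2, so its groups overlapped (log2 fold change 0.11, 95% interval -0.33 to 0.54, adjusted p = 0.747). The upper ends of these intervals are 1.48-fold for Rarg and 1.45-fold for Rara, and the lower ends are 0.963-fold and 0.797-fold.

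Rarb, on chromosome 14 from 16430839 to 17082331, encodes the beta receptor and is itself a retinoic acid target through the DR5 element printed above. It stood at 24.5 and 21.3 normalized counts in G0 and at 17.1 and 41.0 in G2. The 2 G2 libraries were the lowest and the highest of the 4 (log2 fold change 0.21, 95% interval -0.97 to 1.39, adjusted p = 0.819). The level is uncertain for a further reason: the gene overlaps Top2b on the opposite strand, and 30.8% of the 50-base words in its annotated transcripts also occur, on one strand or the other, in those of Top2b. Top2b was far higher, at 1112 to 1733 normalized counts, and whether the counting used strand is not given in the sources used here. How many of the Rarb counts come from Top2b was not tested.

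Rxra, on chromosome 2 from 27676445 to 27763319, encodes the common partner of RAR and many other nuclear receptors. It stood at 1001 and 952.8 normalized counts in G0 and at 1360 and 1263 in G2. The groups did not overlap and the spread within each was small. The mean was 1.34-fold higher in G2, with a log2 fold change of 0.42, an SE of 0.13 and a 95% interval of 0.11 to 0.74, and it missed the threshold after adjustment (unadjusted p = 0.016, adjusted p = 0.0952). Rxrb, its paralog and not a member, stood at 940.7 and 1140 in G0 and at 1051 and 1028 in G2 (log2 fold change 0.01, adjusted p = 0.986).

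**Figure D2:**
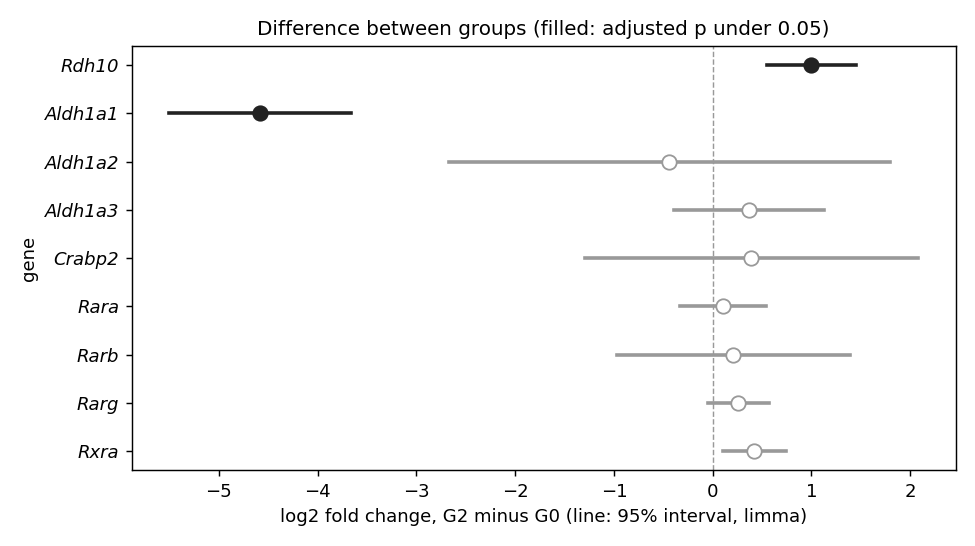
Log2 fold change of each member, G2 minus G0, with its 95% interval from the limma fit; filled points passed the adjusted threshold of 0.05. Aldh1a1 lies at -4.58 and Rdh10 at 1.0, and of the other members' intervals only that of Rxra (0.11 to 0.74) lies wholly on one side of 0.

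Levels of different genes were compared per kb of the longest principal GENCODE mRNA. In G0 the order was Aldh1a1 (2750 ± 166 normalized counts per kb, SD, n = 2), Rarg (975 ± 63.1), Rdh10 (762 ± 152), Rxra (199 ± 6.88), Rara (174 ± 31.9), Aldh1a3 (12.7 ± 2.16), Rarb (7.38 ± 0.732), Crabp2 (6.44 ± 0.154) and Aldh1a2 (0.882 ± 0.0212). Rxra and Rara were the only neighbours in that order whose libraries overlapped. With the merged length of all exons, Rarg overlapped Rdh10 and Crabp2 overlapped Rarb instead. In G2 Rdh10 stood first (1520 ± 262), followed by Rarg (1160 ± 64.7), Rxra (267 ± 14.1), Rara (186 ± 15.6) and then Aldh1a1 (127 ± 79.3), which overlapped Rara on this length but not with merged exons. Aldh1a3 (16.4 ± 0.363), Crabp2 (10.8 ± 9.29) and Rarb (9.36 ± 5.44) overlapped as neighbours, and Aldh1a2 was again last. Aldh1a1 therefore moved from the first to the fifth place. Set against each other within a library, Rdh10 was 0.303 and 0.249 times the per-kb level of Aldh1a1 in G0 and 7.28 and 23.9 times in G2. The order among RAR genes stayed Rarg, Rara, Rarb in all 4 libraries, with Rarg 5.2 to 6.93 times above Rara.

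**Figure D3:**
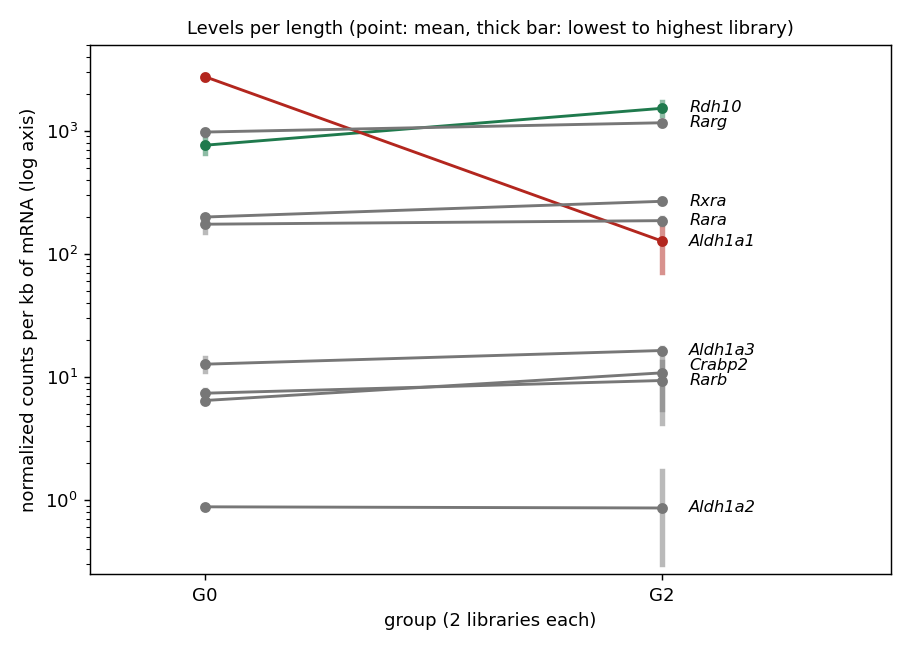
Mean level of each member per kb of mRNA in G0 and G2 on a log axis, with a thick bar from the lowest to the highest library (the G2 bar of Aldh1a2 reaches down to a library at 0, which a log axis cannot show). Aldh1a1 crosses from first in G0 to below Rdh10, Rarg, Rxra and Rara in G2.

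The genes closest to the members that passed were found by Euclidean distance over the 4 libraries, on log2(normalized count + 1) with each gene's mean removed, among 9935 genes with a mean of at least 100. The nearest to Aldh1a1 were Alox5 (distance 0.29), Pcsk5 (0.38) and Wipf1 (0.62). Alox5, the 5-lipoxygenase gene, stood at 277.9, 318.0, 22.2 and 6.8 normalized counts in G0 replicates 1 and 2 and G2 replicates 1 and 2. It was chosen by distance over these same libraries, so its higher level in G2 replicate 1 follows from the choice. The nearest to Rdh10 were Syt11 (0.10), Mal2 (0.12) and Abcc4 (0.12), and Abcc4, an efflux transporter gene, stood at 3390, 2639, 5708 and 6528. A likeness over 4 libraries rests on few points.

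Of the other genes of the retinoid pathway, 71 were listed from textbook knowledge, with earlier results of these data known. The share of a list that passed is therefore not a test of the pathway. Of the 71 genes, 66 had a row, 5 of these were at 0 in every library and 55 were tested. Of the 55, 5 rose and 6 fell (20% passed, beside 10.5% of all genes), with a median log2 fold change of 0.01. Both groups were separate for 31 of them (56.4%, beside 57.8% of all genes). When any 1 library was left out, none of the 11 calls remained (limma adjusted p = 0.0774 to 0.293), while 12 to 20 of the list had an unadjusted p under 0.05. Without the intensity trend 4 of the 11 remained: Tgm2, Meis1, Meis2 and Cd38.

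Among the binding and uptake genes, 1 was abundant at the RNA level. Stra6, which encodes the cell-surface receptor that takes up retinol from its plasma carrier, stood at 30007 and 30317 normalized counts in G0 and at 21600 and 25470 in G2. The G2 values lay below the G0 values without passing the test (log2 fold change -0.36, 95% interval -0.78 to 0.05, adjusted p = 0.234). Of the 6 binding and uptake genes tested, Fabp5, a fatty acid-binding protein that can also carry retinoic acid, was the 1 that passed (16.7%, beside 10.5% of all genes). It fell 3.06-fold, from 198.3 and 210.3 to 50.4 and 83.1 (adjusted p = 0.0194). Rbp4, the plasma carrier, stood at 27.5, 41.6, 4.0 and 19.5 in the 4 libraries in group order (adjusted p = 0.161). Crabp1 had 1 count in all and Rbp2, the retinol carrier of small intestine, had 2, below the 3 counts of the floor in each library. Rxrg had no row.

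Among 6 tested genes of retinol storage and carotenoid cleavage, Isx fell and Bco2 rose (33.3% passed, beside 10.5% of all genes). Isx encodes an intestinal homeobox factor that retinoic acid induces and that represses carotenoid uptake and cleavage. It stood at 7138 and 8306 normalized counts in G0 and at 904.6 and 281.5 in G2, 13-fold lower (adjusted p = 0.00419), or 27.4-fold lower without G2 replicate 1 and 8.54-fold without G2 replicate 2. Like Aldh1a1, it was higher in G2 replicate 1 than in G2 replicate 2. Bco2, a mitochondrial enzyme that cleaves carotenoids off centre, rose 7.62-fold, from 57.0 and 32.5 to 236.0 and 445.7 (adjusted p = 0.00685). Bco1, the central cleavage enzyme that Isx is known to repress, had 1.0 to 4.9 in any library (adjusted p = 0.66). Scarb1, also in this list, did not rise with Bco2. It stood at 2273 and 2468 in G0 and at 2015 and 2038 in G2, without passing (adjusted p = 0.3). Scarb1 was chosen after its values were seen. Lrat, which esterifies retinol for storage, stood at 4.9, 22.3, 5.0 and 0 (adjusted p = 0.223).

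Of 13 tested genes that interconvert retinol and retinal, 2 fell and 0 rose, 15.4% beside 10.5% of all genes; Rdh10, a member, is not in this count. Rdh11, a retinal reductase, fell 1.56-fold, from 1008 and 1035 normalized counts to 683.8 and 628.5 (adjusted p = 0.0337), and it missed the threshold with scaling by library totals (0.0602). Akr1b8, an aldo-keto reductase that acts on retinal, fell 2.42-fold, from 833.6 and 1245 to 496.2 and 363.6 (adjusted p = 0.0218). Dhrs3, which reduces retinal back to retinol and is induced by retinoic acid, stood at 1586 and 2126 in G0 and at 2637 and 4185 in G2. It was 1.84-fold higher on average without passing (log2 fold change 0.86, SE 0.24, adjusted p = 0.0729). Adh1, an alcohol dehydrogenase that clears retinol, had 2.0 to 6.8 in any library (adjusted p = 0.749).

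Of 4 genes of retinoic acid breakdown 2 were tested, and neither passed. Cyp26a1, whose DR5 element is printed above, had no count in any of the 4 libraries, which allows up to 2.93 to 3.05 normalized counts per library. Cyp26b1 stood at 18.7 and 54.9 normalized counts in G0 and at 6.1 and 4.9 in G2. Both G2 libraries lay below G0 and the mean was 6.72-fold lower, or 3.41-fold lower without G0 replicate 2, and missed the threshold (log2 fold change -2.36, SE 0.60, adjusted p = 0.053). It passed with a pseudocount of 5 (limma adjusted p = 0.0491), a minimum mean of 5 (0.0484) or the replicate number as a block (0.0051). It missed with a pseudocount of 0.5 (limma adjusted p = 0.0579), no filter (0.0845) and scaling by library totals (0.0602). Trimmed mean scaling (0.0604), the deposited values (0.0837) and a fit without the intensity trend (0.126) missed as well. The log2 fold change of Cyp26b1 was -3.12 to -1.61 when any 1 library was left out. Cyp2s1, a cytochrome P450 of epithelia that can act on retinoic acid, stood at 63.8 and 431.7 in G0 and at 16.1 and 30.3 in G2. The G0 libraries differed widely, and the mean was 10.7-fold lower in G2 (adjusted p = 0.0743), 2.75-fold without G0 replicate 2 and 18.6-fold without G0 replicate 1. Cyp2s1 was chosen after its values were seen.

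Of 14 tested retinoic acid target genes, 3 rose and 3 fell, 42.9% beside 10.5% of all genes, with a median log2 fold change of -0.25. Genes of this list passed in both directions. The list was written with earlier results of these data known, so its share is not a test of retinoic acid targets. Tgm2, the tissue transglutaminase gene, fell 33.9-fold, from 723.7 and 1156 normalized counts to 25.2 and 30.3 (adjusted p = 0.000315). Cd38, an NAD-consuming surface enzyme, fell 3.63-fold, from 200.3 and 278.3 to 64.5 and 67.4 (adjusted p = 0.00805), and Isx, counted here too, was the third that fell. Meis1 and Meis2, homeobox partners of HOX proteins, rose from 2.0 and 2.0 to 59.5 and 45.0 and from 2.9 and 6.1 to 66.6 and 67.4 (adjusted p = 0.00359 and 0.0052). The ratio of the Meis2 means was 14.8, and 22.7 without G0 replicate 2. Nrip1, a receptor corepressor, rose 1.88-fold, from 1282 and 1025 to 2391 and 1940 (adjusted p = 0.0209). Rarb, Stra6, Dhrs3 and Cyp26b1, whose values are above, are also known targets and did not pass, and Cdx1 had 2.0 to 8.1 in any library (adjusted p = 0.93). Many of these genes answer to other signals as well.

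**Figure D4:**
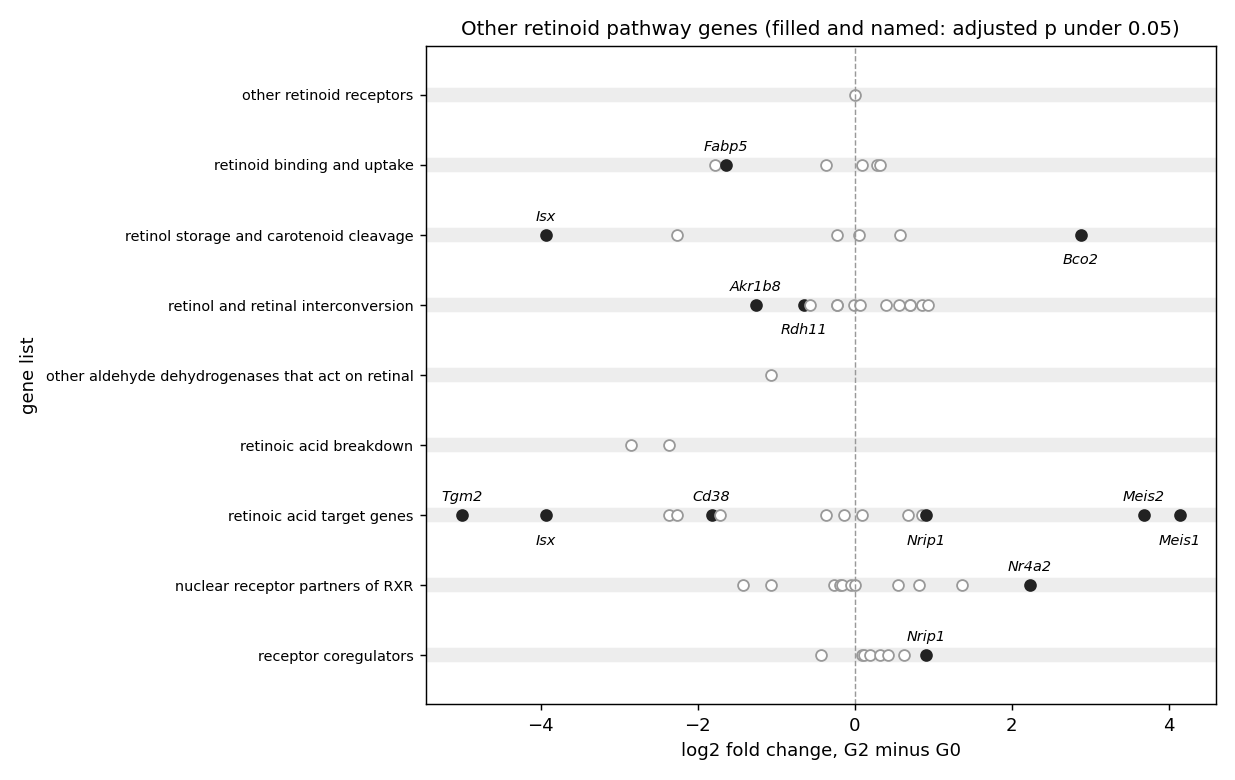
Log2 fold change, G2 minus G0, of the 55 other retinoid pathway genes tested, by list; filled and named points passed the adjusted threshold of 0.05, and genes in more than 1 list appear in each. In the target list Tgm2, Isx and Cd38 lie below 0 and Nrip1, Meis2 and Meis1 above it.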

How the data were processed

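A single table of 16857 genes was deposited by the authors, with 4 columns of log2 values whose lowest value is 6.508 in each. The submitters' processing notes name HISAT2 2.1.0 and StringTie 2.1.1, then DESeq2 1.32.0, and the build mm10. Annotation, strand setting and read filters are not stated in these sources. The values behave as variance-stabilized counts. Inverting that transformation gave normalized counts, and 1 factor per library turned 100% of them into whole numbers (relative tolerance 0.001), which can be rounded estimates. The plan foresaw this scale, so limma 3.58.1 in R 4.3.3 (eBayes, intensity trend, group as the only term) was run on log2(normalized count + 1). It took in the 13981 genes whose mean reached 1. A fold in words is a ratio of mean normalized counts; a log2 fold change understates the change of low genes. Replicate pairs differed beyond counting noise (chi-square per gene 33 in G0 and 24.3 in G2). A p-value here reflects only how far these lines vary. Floors cover counting error only.

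The members and gene lists were chosen with earlier results of these data known. Named genes are the members, listed genes that passed, a set of pathway genes named whatever their values (some are not reported here), and the 3 nearest genes of each member that passed; markers, Tert, Top2b and Y-linked genes are given as checks. Alternatives covered pseudocount, filter, scaling, variance model, replicate block and each library left out, where the lone library is assumed to vary like the other group. Positions and promoters are RefSeq's (GRCm38.p6), lengths GENCODE M21's.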

Additional observations from a re-analysis of the deposited data

How the results depend on the processing

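Only 2 libraries stand in each group, and depth limits Aldh1a2, Crabp2 and Cyp26a1. Leaving out each library in turn gave 0 to 2 genes past the threshold in place of 1467 (2431 to 3234 at an unadjusted p under 0.05), 0 members in place of 2 and 0 other pathway genes in place of 11. The log2 fold change then ranged from -5.26 to -3.90 for Aldh1a1 and from 0.80 to 1.21 for Rdh10. The direction turned in some of these fits for Aldh1a2 (-1.58 to 0.71), Crabp2 (-0.51 to 1.29), Rara (-0.08 to 0.29), Rarb (-0.40 to 0.82), Rxrb (-0.13 to 0.14), Adh1 (-0.11 to 0.92), Cdx1 (-0.94 to 0.68) and Ncor1 (-0.02 to 0.26), none of which had passed. Without the intensity trend 623 genes, 1 member and 4 other pathway genes passed, and Rdh10, still at 1.0, did not (adjusted p = 0.126). Trimmed mean scaling put Rxrb at -0.0036. The cause was not tested. The titles number the replicates 1 and 2 in both groups, but the numbers are not stated to pair the lines. The correlation of deviations from the group means between same-numbered libraries was 0.109. With 2 libraries a group both pairs must give this same value, so it is a single check. With the replicate number as a block 3503 genes and 19 other pathway genes passed, as did Rxra (0.42, adjusted p = 0.0248) beside Aldh1a1 and Rdh10. Dhrs3, Cyp26b1 and Cyp2s1 were among the 19. The 2 member calls kept their side of the threshold under the other pseudocounts, filters and scalings and on the deposited values.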

Other observations

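Nuclear receptors that pair with RXR, and the coregulators that RAR and RXR recruit, were listed beside the retinoid genes. Of 11 partner receptors tested, 1 passed (9.09%, beside 10.5% of all genes): Nr4a2, an orphan receptor of the immediate early class, rose 5.03-fold, from 275.9 and 227.5 normalized counts in G0 to 1723 and 811.3 in G2 (limma adjusted p = 0.0092), and 3.22-fold without G2 replicate 1. Pparg, the fatty acid-sensing receptor of colonocytes, stood at 109.0 and 213.3 in G0 and at 77.7 and 41.0 in G2 (adjusted p = 0.0888). Ppard stood at 5242 and 6233 in G0 and at 6270 and 4180 in G2 (adjusted p = 0.669), and the vitamin D receptor gene Vdr at 53.0, 74.2, 87.7 and 96.8 in the 4 libraries in group order (adjusted p = 0.287). Of 8 coregulator genes, Nrip1 was the 1 that passed (12.5%). The corepressor gene Ncor1 (4536, 4033, 5120 and 4223) overlapped between groups (adjusted p = 0.65). Pparg, Ppard and Vdr were chosen after their values were seen.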
